A study of Mus musculus with 19 samples.

Results

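The genes described here are 36 mouse genes of antioxidant defence, taken by symbol out of the 55536 genes counted in each library. They comprise 5 genes of glutathione synthesis, supply and recycling, 5 glutathione peroxidases, 8 glutathione transferases, 5 genes of the thioredoxin system (thioredoxins, their reductases and the methionine sulfoxide reductase Msrb2), 7 genes of the peroxiredoxin branch (6 peroxiredoxins and sulfiredoxin), 4 superoxide dismutase and catalase genes, and 2 stress-inducible enzymes, Nqo1 and Hmox1. The rule for membership uses gene symbols and no measured values. Total RNA depleted of ribosomal RNA was sequenced from the ventricles of wild-type mice (WT) and of mice with a heart-specific, inducible loss of MPC1 (KO), a subunit of the carrier that brings pyruvate into mitochondria. The groups were WT-8 (wild type, 8 weeks after induction, 5 libraries), KO-8 (MPC1 knockout, 8 weeks, 4 libraries), WT-16 (wild type, 16 weeks, 5 libraries) and KO-16 (MPC1 knockout, 16 weeks, 5 libraries). The labels do not give the strain, the age or sex of the mice, the Cre driver or inducing agent, or whether the wild-type mice carried the driver or received the agent. Whether each library came from its own animal is not stated either, and the p-values therefore reflect only how far libraries of a group differ.

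Heart muscle forms superoxide and hydrogen peroxide as by-products of mitochondrial respiration. Superoxide dismutases turn superoxide into hydrogen peroxide, which catalase, the glutathione peroxidases and the peroxiredoxins remove. Most glutathione peroxidases draw their electrons from reduced glutathione and most peroxiredoxins from thioredoxin. Both carriers are recharged by reductases that use NADPH. Glutathione transferases join glutathione to reactive lipids and other electrophiles, and many genes of these systems can be induced by the transcription factor NRF2 acting with small MAF proteins.

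Depth was 16528626 to 27516660 counted read pairs per library at 8 weeks and 8632127 to 26914074 at 16 weeks. A gene annotated on 18S ribosomal RNA accounted for 6.88% to 39.1% of WT-16 counts, 1.71% to 30.0% in KO-16 and at most 0.0666% at 8 weeks. By their Y-linked counts 2 libraries were male, WT-16 replicate 5 and KO-16 replicate 4. Mpc1 itself had 63.7 to 82.4 CPM (counts relative to the effective library total, after TMM scaling) in WT-8 and 8.42 to 12 in KO-8, and 61.7 to 83.9 in WT-16. The KO-16 libraries had 26.2, 9.04, 9.26, 15.1 and 16.0 CPM in the order of replicates 1 to 5, the order used for all values here, so KO-16 replicate 1 kept the most. Summed over 8 cardiomyocyte markers the libraries held 40000 to 48200 CPM at 8 weeks and 46400 to 53800 in WT-16, and every marker was above 1 CPM in every library. Expression was tested at each time in its own libraries with edgeR's quasi-likelihood test and Benjamini-Hochberg adjustment over all genes tested, and a gene is said to have risen or fallen where the adjusted p was under 0.05. In whole-ventricle RNA, fewer cells of a type and less RNA per cell cannot be told apart.

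The promoters shown here are those of the genes on which the results turn, 250 bases before to 50 bases after the transcription start, on the strand of each gene (RefSeq, GRCm38.p6). Of the 36 members 30 had such an entry. The first group is Gstm2 and Gstm1, both lower in KO-8, with their cluster neighbours Gstm7, also lower but not a member, and Gstm5, which did not pass the test.
Gstm2 (chr3:107986371-107986670, minus strand): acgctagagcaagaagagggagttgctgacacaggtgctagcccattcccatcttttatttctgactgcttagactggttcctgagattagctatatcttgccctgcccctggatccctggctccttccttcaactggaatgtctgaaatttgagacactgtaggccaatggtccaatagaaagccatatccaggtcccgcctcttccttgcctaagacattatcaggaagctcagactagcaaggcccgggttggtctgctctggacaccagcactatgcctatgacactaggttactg
Gstm1 (chr3:108017924-108018223, minus strand): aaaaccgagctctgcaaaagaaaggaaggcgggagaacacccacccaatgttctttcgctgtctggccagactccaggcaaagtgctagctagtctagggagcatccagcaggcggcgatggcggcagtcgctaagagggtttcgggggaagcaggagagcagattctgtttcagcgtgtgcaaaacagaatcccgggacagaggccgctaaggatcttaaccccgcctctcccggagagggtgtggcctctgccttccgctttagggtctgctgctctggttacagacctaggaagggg
Gstm7 (chr3:107931768-107932067, minus strand): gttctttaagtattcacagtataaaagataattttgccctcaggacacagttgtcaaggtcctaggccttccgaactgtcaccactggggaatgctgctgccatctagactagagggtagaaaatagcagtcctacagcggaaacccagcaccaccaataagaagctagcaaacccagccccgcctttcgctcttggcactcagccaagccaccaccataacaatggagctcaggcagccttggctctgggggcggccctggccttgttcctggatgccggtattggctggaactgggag
Gstm5 (chr3:107895604-107895903, plus strand): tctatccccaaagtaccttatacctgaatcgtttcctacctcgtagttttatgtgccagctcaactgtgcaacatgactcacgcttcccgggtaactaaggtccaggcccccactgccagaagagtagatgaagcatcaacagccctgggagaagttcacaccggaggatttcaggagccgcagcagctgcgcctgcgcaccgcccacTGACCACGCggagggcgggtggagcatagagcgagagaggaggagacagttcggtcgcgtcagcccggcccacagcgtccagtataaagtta
The second group is Gstk1, lower in KO-8 on another chromosome, followed by Gpx1, Nqo1 and Srxn1, the members with the largest positive differences at 16 weeks.
Gstk1 (chr6:42245685-42245984, plus strand): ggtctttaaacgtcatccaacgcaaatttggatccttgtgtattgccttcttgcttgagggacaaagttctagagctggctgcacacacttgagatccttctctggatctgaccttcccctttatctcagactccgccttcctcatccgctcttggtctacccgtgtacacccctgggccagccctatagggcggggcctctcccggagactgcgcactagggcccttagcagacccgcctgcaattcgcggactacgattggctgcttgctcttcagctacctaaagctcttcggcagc
Gpx1 (chr9:108338830-108339129, plus strand): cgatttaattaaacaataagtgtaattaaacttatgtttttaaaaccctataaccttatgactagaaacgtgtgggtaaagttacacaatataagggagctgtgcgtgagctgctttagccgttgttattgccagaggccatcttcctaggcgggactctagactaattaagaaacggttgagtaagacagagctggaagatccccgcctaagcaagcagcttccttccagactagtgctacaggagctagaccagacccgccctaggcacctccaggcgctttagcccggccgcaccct
Nqo1 (chr8:107403156-107403455, minus strand): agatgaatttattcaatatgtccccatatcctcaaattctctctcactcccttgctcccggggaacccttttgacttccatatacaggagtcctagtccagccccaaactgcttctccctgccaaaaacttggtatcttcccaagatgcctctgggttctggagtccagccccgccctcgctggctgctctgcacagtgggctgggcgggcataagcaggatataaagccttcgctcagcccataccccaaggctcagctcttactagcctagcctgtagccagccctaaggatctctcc
Srxn1 (chr2:152105274-152105573, plus strand): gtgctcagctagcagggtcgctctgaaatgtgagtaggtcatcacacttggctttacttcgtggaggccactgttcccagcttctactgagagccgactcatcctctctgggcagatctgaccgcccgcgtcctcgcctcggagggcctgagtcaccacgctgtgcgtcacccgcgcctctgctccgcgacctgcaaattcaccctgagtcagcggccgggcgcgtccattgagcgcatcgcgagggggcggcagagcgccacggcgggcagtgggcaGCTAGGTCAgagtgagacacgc

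Capitals mark the letters TGACNNNGC on either strand, the core of the antioxidant response element to which NRF2 and small MAF proteins bind. Some matches can also hold the related AP-1 site TGACTCA. The core occurred in 7 of the 30 member promoters (23.3%): Gclm, Gstm5, Mgst1, Msrb2, Prdx1, Srxn1 and Sod1. It occurred in 4071 of all 32851 promoter windows in the same table (12.4%). In Gstm5 the match TGACCACGC began 42 bases before the start, and in Srxn1 the match GCTAGGTCA, the core read on the opposite strand, began 28 bases after it. A match is a description of the letters and not a site shown to be bound, and the element can lie outside such a window. For Gstm1 and Gstm7 the table lists 2 starts, and the window nearest the annotated 5′ end is shown. In a global alignment 56.7% to 61.7% of 300 bases were identical between pairs of the Gstm windows, and 58.7% to 60.7% between each of them and Gstk1. Gaps were allowed and no set of unrelated promoters was aligned, so these shares have no baseline and do not show a shared sequence.

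At 8 weeks the changes past the test lay in the glutathione transferases: Gstm2, Gstk1 and Gstm1 fell, and no member rose. No gene of the other branches passed. Slc7a11, the cystine transporter subunit that feeds glutathione synthesis, was nearly silent, with 21, 7, 6 and 8 counts over all libraries of WT-8, KO-8, WT-16 and KO-16, and was the only member below the filter on low counts. Of the 35 members tested 3 were lower (8.57%), against 8.21% of all 15173 genes called in either direction, 4.3% higher and 3.91% lower, so the list as a whole was called about as often as any gene. The median log2 fold change (KO minus WT) was 0.02 over the members and 0.00 over all genes tested. In the 8 transferases 3 fell and the median was -0.25. In the 5 peroxidases it was 0.09, in the thioredoxin system -0.05, in the peroxiredoxin branch 0.05, and in the superoxide dismutases and catalase 0.12. All 3 calls were lost in a fit of all 19 libraries, which shares one spread with the noisier 16-week libraries and called 0.2% of all genes at 8 weeks (0.11% higher, 0.0903% lower): the adjusted p was 0.152 for Gstm2, 0.698 for Gstk1 and 0.404 for Gstm1. Markers of other cells differed as well: the 10 fibroblast markers summed to a median of 796 CPM in WT-8 and 1030 in KO-8 with no overlap between the groups, the 8 endothelial markers to 633 to 679 and 696 to 782, and the cardiomyocyte markers to 44400 to 48200 and 40000 to 46600. Their part in the result was not tested.

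At 16 weeks Gstm2 was lower and no other member passed the test, but several differed in mean by about 2-fold, with a wide spread between KO-16 libraries. The fitted levels of Gpx1, Srxn1 and Nqo1 were 2.35-, 2.21- and 2.02-fold higher in KO-16, and that of Gstk1 was 1.98-fold lower, none of them past the threshold. Of 35 members tested 1 fell (2.86%), against 2.83% of all 12597 genes in either direction, 1.88% higher and 0.945% lower, again about the share of all genes. The median was 0.08 over the members and 0.01 over all genes. By branch it was 0.53 in the peroxidases, -0.12 in the transferases, 0.09 in the thioredoxin system, 0.22 in the peroxiredoxin branch and -0.28 in the superoxide dismutases and catalase. In the fit with 18S share as a covariate some of these medians turned or moved: the peroxiredoxin branch was at -0.03, the thioredoxin system and all members at -0.01, the transferases at -0.37, the peroxidases at 0.37 and the superoxide dismutases and catalase at -0.21. Among the libraries with over 20% of counts on 18S the peroxiredoxin branch was at -0.05 and the thioredoxin system at -0.01. There the peroxidases were at 0.37, the transferases at -0.44 and the superoxide dismutases and catalase at -0.25. In the fit of all 19 libraries, which called 20.5% of all genes at 16 weeks (11.2% higher, 9.33% lower), 6 members passed as higher (Gpx1, Gpx4, Prdx5, Prdx6, Srxn1 and Nqo1) and 5 as lower (Gstm2, Gstk1, Mgst1, Sod1 and Sod2). That fit lends the smaller spread of the 8-week libraries to the 16-week ones: the common coefficient of variation was 0.093 at 8 weeks and 0.228 at 16 weeks.

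**Figure D1:**
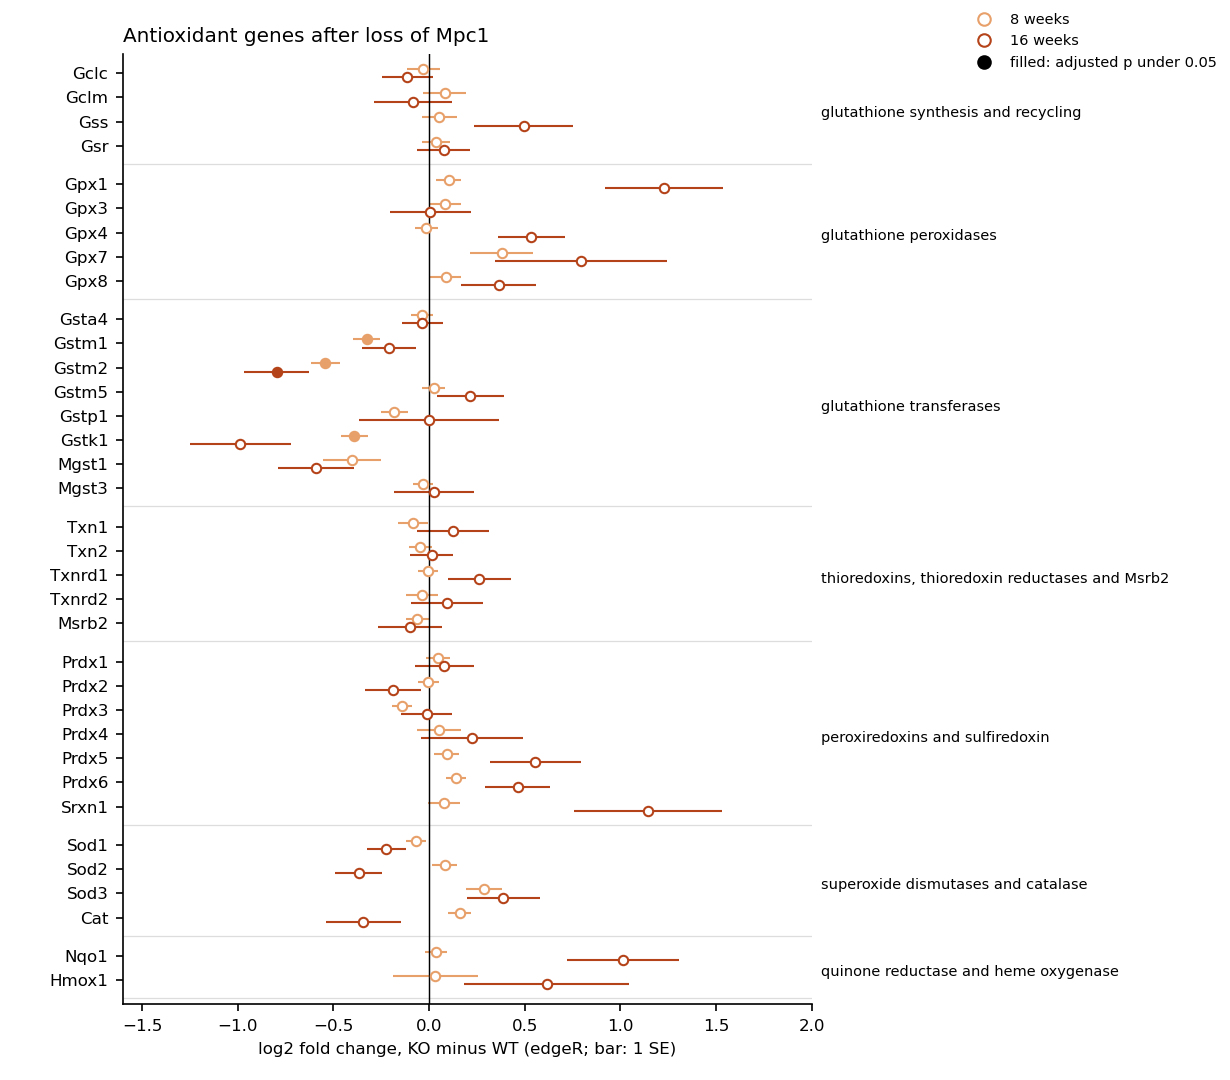
Log2 fold changes (KO minus WT, x axis) of the 35 tested members at 8 and 16 weeks, grouped by branch, with bars of 1 SE and filled points where the adjusted p was under 0.05. The filled points are Gstm1, Gstm2 and Gstk1 at 8 weeks and Gstm2 at 16 weeks, all to the left of 0, and the 16-week bars are longer than the 8-week bars.

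The difference between the 2 times was tested directly as the KO effect at 16 weeks minus that at 8 weeks. None of the 35 members passed, and none of 15503 genes did (0.0%), while 6 members and 2000 genes had an unadjusted p under 0.05. DESeq2 called 23 genes and no member. The 6 members were Gpx1 (1.11, SE 0.34, adjusted p = 0.286), Srxn1 (1.08, SE 0.42, adjusted p = 0.331), Nqo1 (0.98, SE 0.32, adjusted p = 0.311), Gpx4 (0.55, SE 0.20, adjusted p = 0.321), Cat (-0.50, SE 0.22, adjusted p = 0.365) and Sod2 (-0.45, SE 0.15, adjusted p = 0.311). For the genes that fell at 8 weeks the difference was -0.25 (SE 0.20, adjusted p = 0.583) in Gstm2, -0.59 (SE 0.30, adjusted p = 0.404) in Gstk1 and 0.12 (SE 0.17, adjusted p = 0.773) in Gstm1.

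Glutathione is made in steps catalysed by glutamate-cysteine ligase, with its catalytic subunit Gclc and modifier subunit Gclm, and glutathione synthetase (Gss), and its oxidised form is reduced again by Gsr. None of these 4 genes passed at either time. Their log2 fold changes lay between -0.03 (Gclc) and 0.08 (Gclm) at 8 weeks. At 16 weeks they were -0.11 in Gclc, -0.08 in Gclm, 0.08 in Gsr and 0.49 (SE 0.26, adjusted p = 0.247) in Gss. Gsr had 13.1 CPM in WT-8 and 13.5 in WT-16. Gss, the least expressed of these 4 per exonic length, had 3.29, 2.89, 4.84, 3.0 and 6.67 CPM in WT-16 and 5.75, 5.44, 5.19, 8.43 and 4.49 in KO-16. The groups overlapped, and the male WT-16 replicate 5 lay above 4 of the 5 KO-16 libraries.

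Most glutathione peroxidases use glutathione to reduce peroxides. Gpx1, the cytosolic and mitochondrial enzyme for hydrogen peroxide (ENSMUSG00000063856, GRCm38 chromosome 9, 108338903 to 108340343), had 22.8, 25.0, 23.0, 27.5 and 22.5 CPM in WT-8 and 26.2, 23.9, 26.6 and 26.2 in KO-8. At 16 weeks it had 7.59, 14.8, 19.4, 14.2 and 9.43 CPM in WT and 20, 38.3, 46.2, 37.5 and 14.8 in KO. At 8 weeks the groups were mixed. At 16 weeks 4 of the 5 KO libraries lay above all WT libraries, and KO-16 replicate 5 lay within the WT range. The means at 16 weeks were 13.1 ± 4.69 CPM in WT and 31.4 ± 13.3 in KO (SD, n = 5 each). This gave a log2 fold change of 1.23 with an SE of 0.31 (adjusted p = 0.0501), just outside the threshold, against 0.10 (SE 0.07, adjusted p = 0.386) at 8 weeks. Without KO-16 replicate 1, replicate 5, or WT-16 replicate 3 it passed (adjusted p = 0.0117, 0.0129 and 0.0475), as it did with RLE or upper-quartile factors (0.0495 and 0.0475), without rRNA and mitochondrial genes (0.0494) and with DESeq2 (0.004). It did not pass with limma-voom (0.0855), with either count file alone (0.0517 and 0.0557), without the 2 male libraries (1.07, adjusted p = 0.209) or in the fit with 18S share as a covariate (1.01, adjusted p = 0.126).

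Gpx4, the selenoenzyme that reduces lipid hydroperoxides in membranes, was one of the most expressed members per exonic length in WT-8. It had 126, 118, 120, 122 and 102 CPM in WT-8 and 123, 113, 116 and 110 in KO-8. The 16-week values were 45.5, 45, 52.7, 40.1 and 41.6 CPM in WT and 58.6, 94.2, 65.5, 63.6 and 42.0 in KO. As with Gpx1, only KO-16 replicate 5 lay within the WT-16 range. The log2 fold change was -0.01 with an SE of 0.06 at 8 weeks (adjusted p = 0.924) and 0.53 with an SE of 0.18 at 16 weeks (adjusted p = 0.0925), and 34.5% of the 51-base stretches of its transcripts also occurred in other genes, mainly the pseudogene Gpx4-ps2, so its level is less certain. Without KO-16 replicate 5 it passed (0.65, adjusted p = 0.02). It did not pass with a covariate for the 18S share (0.37, adjusted p = 0.292) or without the 2 male libraries (0.51, adjusted p = 0.279). Gpx3, the secreted plasma form, had log2 fold changes of 0.08 and 0.01 at 8 and 16 weeks. Gpx7 and Gpx8, peroxidases of the endoplasmic reticulum, were at 0.38 (adjusted p = 0.182) and 0.09 at 8 weeks and at 0.79 (SE 0.45, adjusted p = 0.283) and 0.36 (SE 0.20, adjusted p = 0.26) at 16 weeks. Gpx7 had at most 4.1 CPM in any library.

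**Figure D2:**
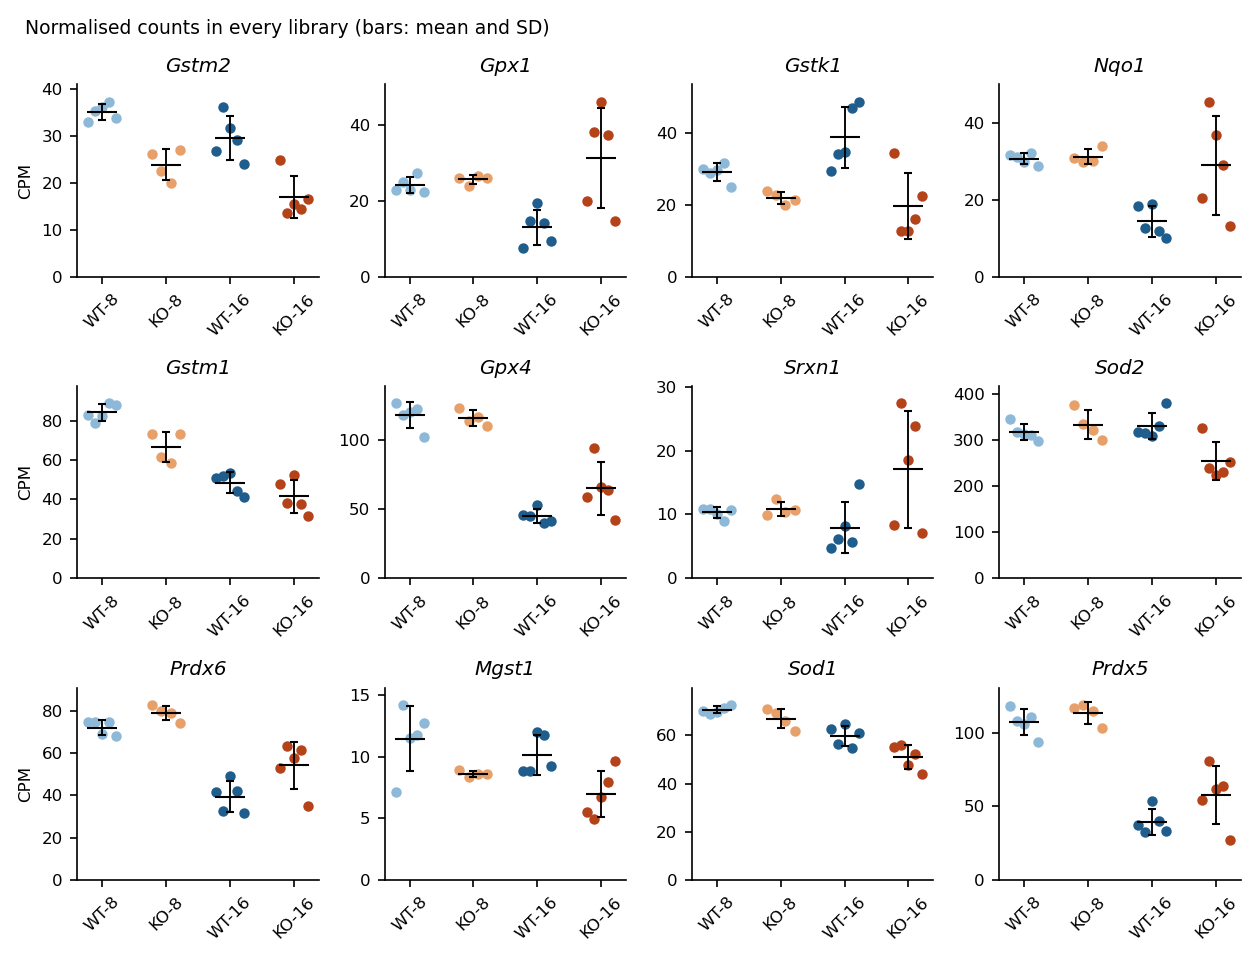
Normalised counts (CPM, y axis from 0) of the 12 members described library by library, in WT-8, KO-8, WT-16 and KO-16, points in replicate order and bars giving the mean and SD. For Gstm2, Gstk1 and Gstm1 all KO-8 points lie below all WT-8 points, and for Gpx1, Nqo1 and Srxn1 the KO-16 points spread from the WT-16 level to well above it.

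Among the glutathione transferases, Gstm2 was the only member that fell at both times. This mu-class enzyme (ENSMUSG00000040562, chromosome 3, 107981702 to 107986453, minus strand) had 33.0, 35.4, 36.3, 37.3 and 33.8 CPM in WT-8 and 26.1, 22.5, 20.1 and 27.1 in KO-8. It had 26.8, 36.2, 31.8, 29.1 and 24.1 CPM in WT-16 and 24.9, 13.6, 15.6, 14.5 and 16.6 in KO-16. At 8 weeks every KO library lay below every WT library, and at 16 weeks all but KO-16 replicate 1 did. The mean fell from 35.2 ± 1.76 (SD, n = 5) to 24.0 ± 3.22 CPM (n = 4) at 8 weeks, a log2 fold change of -0.54 with an SE of 0.08 (adjusted p = 0.000977). It fell from 29.6 ± 4.63 to 17.1 ± 4.53 CPM (n = 5 each) at 16 weeks, a log2 fold change of -0.80 with an SE of 0.17 (adjusted p = 0.0333). The 8-week call held without any single library (adjusted p = 0.000643 to 0.00438). The 16-week call was lost without any one of 8 libraries, all of WT-16 and replicates 2, 3 and 4 of KO-16 (adjusted p = 0.0573 to 0.0913), without the 2 male libraries (0.149), with the earlier of the 2 count files alone (0.0806) and with a covariate for the 18S share (-0.84, adjusted p = 0.0893), while the log2 fold change stayed between -0.60 and -0.98.

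Gstm1, the most expressed mu-class gene, fell at 8 weeks. It had 83.1, 78.9, 82.4, 88.8 and 88.2 CPM in WT-8 and 73.4, 61.6, 58.6 and 73.4 in KO-8, so the groups were apart. Its log2 fold change was -0.33 (SE 0.07, adjusted p = 0.0111). At 16 weeks it had 51.1, 51.9, 53.5, 44.1 and 41.4 CPM in WT and 47.9, 38.4, 52.4, 37.9 and 31.6 in KO. These groups overlapped, with KO-16 replicate 3 among the highest WT libraries, and the log2 fold change was -0.21 (SE 0.14, adjusted p = 0.36). Of its 51-base stretches 18.5% were shared with other genes, mainly Gstm2-ps1 and Gstm3, against 5.48% for Gstm2.

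Gstm1, Gstm2 and Gstm5 belong to a cluster of mu-class genes on chromosome 3, and its other genes were examined to see how far the fall extended. In chromosome order, from 107895821 (Gstm5) to 108044894 (Gstm4), the genes are Gstm5, Gstm7, Gstm6, Gstm3, Gstm2, Gstm1 and Gstm4. Gstm7, which is not a member, fell at both times and its groups did not overlap at either: -0.37 with an SE of 0.09 at 8 weeks (adjusted p = 0.0262) and -0.95 with an SE of 0.16 at 16 weeks (adjusted p = 0.0186). The 16-week call of Gstm7 was lost without any one of 5 libraries, replicates 1, 2 and 4 of WT-16 and 3 and 4 of KO-16 (adjusted p = 0.0506 to 0.0661), without the 2 male libraries (0.124) and with a covariate for the 18S share (0.0685). Its 8-week call was lost in the fit of all 19 libraries (0.373). Gstm5 and Gstm4 lie at the ends of the cluster. Gstm5, on the opposite strand, was at 0.02 (adjusted p = 0.864) and 0.22 (adjusted p = 0.45), and Gstm4 at 0.15 (adjusted p = 0.435) and 0.60 (adjusted p = 0.202). Gstm6 had about 0.5 CPM and Gstm3, named after its values were seen, had 0 to 6 counts in each group. The genes between the ends that were expressed, Gstm7, Gstm2 and Gstm1, were thus the ones that fell, Gstm1 at 8 weeks alone.

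**Figure D3:**
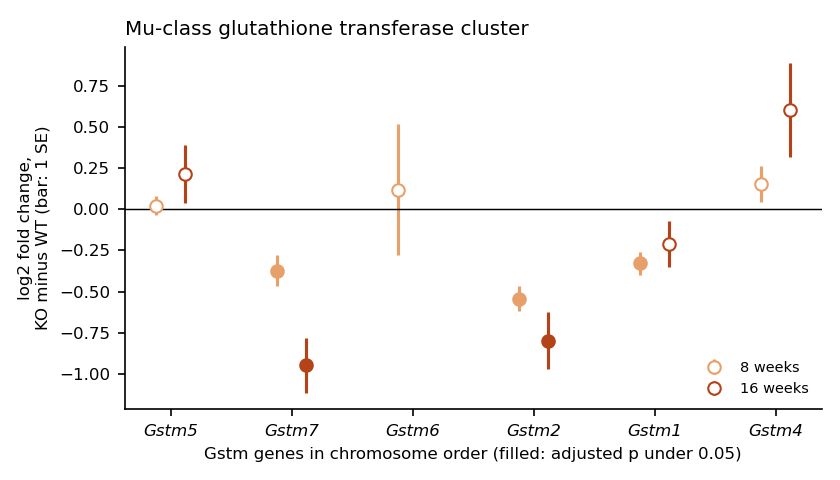
Log2 fold changes (KO minus WT, y axis, bars of 1 SE) of the mu-class transferase genes in chromosome order at 8 and 16 weeks, filled where the adjusted p was under 0.05. Gstm7 and Gstm2 are filled below 0 at both times and Gstm1 at 8 weeks, Gstm5 and Gstm4 are open at or above 0, Gstm6 passed the filter on low counts at 8 weeks alone, and Gstm3, which passed it at neither time, is not drawn.

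Gstk1, the kappa-class transferase of mitochondria and peroxisomes (ENSMUSG00000029864, chromosome 6, 42245935 to 42250447), also fell at 8 weeks. It had 29.9, 28.9, 29.6, 31.6 and 24.9 CPM in WT-8 and 23.7, 22.7, 20 and 21.3 in KO-8. All KO-8 libraries lay below all WT-8 libraries. The log2 fold change was -0.39 (SE 0.07, adjusted p = 0.00453), and the call held without any single library (adjusted p = 0.00114 to 0.0143). The 16-week values were 29.3, 34.0, 34.6, 46.8 and 48.5 CPM in WT and 34.3, 12.6, 12.6, 16.0 and 22.3 in KO. KO-16 replicates 2 to 5 lay below all WT libraries and replicate 1 lay in the middle of them. The log2 fold change of -0.99 with an SE of 0.26 (adjusted p = 0.0579) missed the threshold. It passed without KO-16 replicate 1 (-1.31, adjusted p = 0.00158) and without replicate 5 (-1.04, adjusted p = 0.0338). Among the libraries with over 20% of counts on 18S it passed too (-1.04, adjusted p = 0.0495). That set holds 4 WT-16 libraries and only replicates 4 and 5 of KO-16, and so leaves out replicate 1. Gstm2 also passed in it (-0.89, adjusted p = 0.0488), while Gpx1, Nqo1 and Srxn1 did not (adjusted p = 0.102, 0.3 and 0.313). Gstk1 passed as well with the earlier count file alone (-1.11, adjusted p = 0.0461), with DESeq2 (0.0101), without a filter on low counts (0.0087) and with limma-voom (-1.10, adjusted p = 0.0478). It did not pass with RLE or upper-quartile factors (0.0581 and 0.0583), without rRNA and mitochondrial genes (0.0586), with the later count file alone (0.0683), with a covariate for the 18S share (-0.92, adjusted p = 0.156) or without the 2 male libraries (-0.84, adjusted p = 0.237), and over the fits leaving out 1 library the adjusted p reached 0.138.

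The microsomal transferase Mgst1 had 7.16, 14.2, 11.5, 11.8 and 12.7 CPM in WT-8 and 8.91, 8.32, 8.59 and 8.59 in KO-8. At 8 weeks the log2 fold change was -0.40 (SE 0.15, adjusted p = 0.119). It passed without the low WT-8 replicate 1 (-0.54, adjusted p = 0.00212) and without a filter on low counts (-0.41, adjusted p = 0.00352). At 16 weeks Mgst1 had 8.85, 8.86, 12, 11.8 and 9.20 CPM in WT and 5.47, 4.97, 6.73, 7.94 and 9.64 in KO, a log2 fold change of -0.59 with an SE of 0.20 (adjusted p = 0.0981). All KO-16 libraries but replicate 5 were below the WT-16 range, and without it the gene passed (-0.73, adjusted p = 0.0279). Among the libraries over 20% 18S, of which KO-16 gives only replicates 4 and 5, the value was -0.14 (adjusted p = 0.848). The remaining transferases did not pass at either time. Gsta4, which acts on the lipid peroxidation product 4-hydroxynonenal, was at -0.04 at both times. Mgst3 was at -0.03 and 0.02, and Gstp1 at -0.18 (adjusted p = 0.129) and 0.00 (SE 0.37).

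In the thioredoxin system the cytosolic pair Txn1 and Txnrd1, the mitochondrial pair Txn2 and Txnrd2, and the mitochondrial methionine sulfoxide reductase Msrb2 stayed within narrow limits at 8 weeks, with log2 fold changes from -0.08 (Txn1) to -0.01 (Txnrd1) and none past the test. At 16 weeks the values ran from -0.10 (Msrb2, SE 0.17) to 0.26 (Txnrd1, SE 0.16, adjusted p = 0.324), and again none passed. Txnrd1 had 44.3, 37.6, 43.5, 46.0 and 61.9 CPM in WT-16 and 47.6, 62.7, 43.5, 72.8 and 51.9 in KO-16. The highest library of each group was its male one. The mitochondrial Txn2 had 35.2 CPM in WT-16 and a log2 fold change of 0.01 (SE 0.11).

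The peroxiredoxins reduce peroxides through a reactive cysteine, and sulfiredoxin, encoded by Srxn1, restores that cysteine once it has been over-oxidised. Srxn1 (ENSMUSG00000032802, chromosome 2, 152105516 to 152111376) had 10.9, 10.9, 10.1, 8.99 and 10.7 CPM in WT-8 and 9.85, 12.4, 10.4 and 10.7 in KO-8. At 16 weeks it had 4.81, 6.15, 8.11, 5.66 and 14.7 CPM in WT and 8.28, 27.4, 18.5, 23.9 and 7.15 in KO. KO-16 replicates 2, 3 and 4 lay above every WT-16 library, replicates 1 and 5 lay within the WT range, and the highest WT-16 value was that of the male replicate 5. On the log2 scale the difference was 0.08 with an SE of 0.09 at 8 weeks (adjusted p = 0.644) and 1.14 with an SE of 0.39 at 16 weeks (adjusted p = 0.0981). It passed without KO-16 replicate 1 or replicate 5 (adjusted p = 0.0277 and 0.0308) and with DESeq2 (0.0441). Without the 2 male libraries it was 1.30 (adjusted p = 0.196) and with a covariate for the 18S share 1.03 (0.248), and with limma-voom the adjusted p was 0.134.

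Prdx5 and Prdx6, which act in mitochondria and peroxisomes and in the cytosol on phospholipid peroxides, had the largest log2 fold changes among the peroxiredoxins at 16 weeks. Prdx5 had 118, 108, 106, 111 and 93.9 CPM in WT-8 and 117, 119, 115 and 103 in KO-8, and 37.2, 32.5, 53.6, 39.8 and 32.9 in WT-16 and 54.2, 81.1, 61.7, 63.9 and 26.8 in KO-16. KO-16 replicate 5 was the lowest of all 16-week libraries, and the other 4 were above all of WT-16. The log2 fold change at 16 weeks was 0.56 (SE 0.24, adjusted p = 0.164), and 0.73 (adjusted p = 0.0194) without replicate 5. With a covariate for the 18S share it was 0.35 (adjusted p = 0.43), and without the 2 male libraries 0.46 (0.419). Prdx6 had 74.7, 74.6, 68.9, 74.6 and 68.0 CPM in WT-8 and 82.9, 80.2, 78.9 and 74.4 in KO-8, and 41.7, 32.4, 49.2, 42.0 and 31.7 in WT-16 and 53.0, 63.3, 57.9, 61.6 and 35.2 in KO-16. Here too KO-16 replicate 5 alone lay in the WT-16 range. The log2 fold change of Prdx6 was 0.14 with an SE of 0.05 at 8 weeks (adjusted p = 0.115) and 0.46 with an SE of 0.17 at 16 weeks (adjusted p = 0.118), and 0.58 (adjusted p = 0.0223) without replicate 5. At 16 weeks it was 0.36 (adjusted p = 0.306) with a covariate for the 18S share and 0.35 (0.376) without the 2 male libraries.

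Prdx1, Prdx2, Prdx3 and Prdx4 did not pass at either time, and their log2 fold changes lay between -0.19 and 0.22. Prdx3, the mitochondrial matrix peroxiredoxin, was at -0.14 (SE 0.05, adjusted p = 0.126) and -0.01 (SE 0.14). Prdx2, which is also abundant in red blood cells, was at 0.00 and -0.19 (SE 0.15, adjusted p = 0.426). Its lowest value, 106 CPM, was in KO-16 replicate 3, where the 7 erythroid markers summed to 1140 CPM, the highest sum of the KO-16 libraries. The part of blood content in the level of Prdx2 was not tested.

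Of the superoxide dismutases, Sod2 in the mitochondrial matrix and Sod1 in the cytosol were lower on average in KO-16, and Sod3 outside the cell was higher on average in both KO groups. Sod2 had 345, 317, 313, 311 and 298 CPM in WT-8 and 376, 335, 321 and 300 in KO-8. The 16-week values were 317, 315, 308, 330 and 379 CPM in WT and 326, 240, 224, 231 and 251 in KO. All KO-16 libraries but replicate 1 were below all WT-16 libraries. The log2 fold change was 0.08 with an SE of 0.07 at 8 weeks (adjusted p = 0.5) and -0.37 with an SE of 0.13 at 16 weeks (adjusted p = 0.0992), and without KO-16 replicate 1 it was -0.47 (adjusted p = 0.0151). At 16 weeks it was -0.36 (adjusted p = 0.227) with a covariate for the 18S share and -0.28 (0.342) without the 2 male libraries. Of the 51-base stretches of Sod2 20.8% also occurred in other genes.

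Sod1 had 70.1, 69.1, 69.7, 71.6 and 72.7 CPM in WT-8 and 70.9, 69.3, 65.9 and 61.8 in KO-8, and 62.5, 56.6, 64.8, 54.8 and 60.9 in WT-16 and 55.4, 55.9, 47.8, 52.5 and 44.0 in KO-16. The 16-week groups overlapped at the lowest WT library, and the log2 fold change was -0.22 (SE 0.10, adjusted p = 0.197). Sod3 was the only member that did not overlap upward at 8 weeks, with 5.67 to 6.61 CPM in WT-8 and 6.73 to 8.93 in KO-8, but its log2 fold change of 0.29 with an SE of 0.09 (adjusted p = 0.0768) did not pass. In all, 4 members had no overlap between the groups at 8 weeks, Sod3 higher and Gstm1, Gstm2 and Gstk1 lower. Of all genes tested 10.9% had none, 5.02% higher and 5.85% lower. At 16 weeks no member was without overlap, against 4.68% of all genes (2.12% higher, 2.56% lower). Catalase (Cat) had 130 to 158 CPM in WT-8 and 155 to 160 in KO-8, and the log2 fold change was 0.16 with an SE of 0.06 (adjusted p = 0.134). At 16 weeks it had 184 to 377 CPM in WT and 170 to 307 in KO, a log2 fold change of -0.34 with an SE of 0.20 (adjusted p = 0.284).

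Nqo1, the NAD(P)H quinone reductase often used as a readout of NRF2 activity (ENSMUSG00000003849, chromosome 8, 107388225 to 107403206, minus strand), did not pass at 8 weeks, with 31.7, 31.3, 29.9, 32.3 and 28.9 CPM in WT and 31.0, 29.9, 30.3 and 34.1 in KO. The 16-week values were 18.5, 12.8, 19, 12 and 10.1 CPM in WT and 20.6, 45.6, 37.0, 29.1 and 13.1 in KO. KO-16 replicates 2, 3 and 4 stood well above all WT libraries, replicate 1 just above them and replicate 5 among them. Its log2 fold change was 0.04 with an SE of 0.06 at 8 weeks (adjusted p = 0.757) and 1.01 with an SE of 0.29 at 16 weeks (adjusted p = 0.0675). It passed without KO-16 replicate 1 or replicate 5 (adjusted p = 0.0242 and 0.0149) and with DESeq2 (0.0177). In the fit with 18S share as a covariate it was 0.77 (adjusted p = 0.213), with limma-voom 0.91 (0.11) and without the 2 male libraries 0.92 (0.241). Hmox1, the inducible heme oxygenase, was low, with at most 6.9 CPM in any library, and was at 0.03 (SE 0.22) and 0.61 (SE 0.43, adjusted p = 0.381).

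For the members given library by library, the KO-16 libraries thus differed among themselves in a partly shared order. Distances from the WT-16 mean were taken in the direction of each member's mean difference. Over the 12 members given library by library, replicate 2 lay farthest in 8 and replicates 3 and 5 in 2 each. Replicate 5 lay nearest in 7 and replicate 1 in 3, and replicates 1 and 5 were among the nearest pair in 11 and 10 of the 12. The members share libraries, so these counts describe the libraries and are not separate observations. The 12 members were also chosen by adjusted p in these same data, and the direction came from the same libraries. The order is therefore not shown for the other members. Other measures moved with this order in part. The 8 cardiomyocyte markers summed to 30100, 33300 and 35900 CPM in replicates 2, 3 and 4 and to 50300 and 43400 in replicates 1 and 5. Much of that sum was Myh6, with 23700, 11300, 14100, 14500 and 22900 CPM in replicates 1 to 5. Myl3 was instead lowest in replicates 1 and 5, with 862, 1170, 866, 928 and 559 CPM. At 16 weeks 5 of the 8 markers had negative and 3 positive log2 fold changes, none past the test. The 10 fibroblast markers summed to 1570, 1880 and 1340 CPM in replicates 2, 3 and 4 and to 695 and 1080 in replicates 1 and 5, against 513 to 678 in WT-16. The erythroid markers summed to 212, 1140 and 569 CPM in replicates 2, 3 and 4 and to 108 and 48.0 in replicates 1 and 5. Residual Mpc1 was highest in replicate 1, at 26.2 CPM, and nearly equal in replicates 4 and 5, at 15.1 and 16.0 CPM, against 9.04 and 9.26 in replicates 2 and 3. The 18S share was 12.7%, 1.71%, 5.66%, 30.0% and 26.1% of counts in replicates 1 to 5, lowest in replicates 2 and 3 and highest in replicate 4. The part of cell makeup, of residual Mpc1, of the 18S share and of sex in this order was not tested. Leaving out replicate 1 gave 3 members higher and 3 lower, with 13.4% of all genes called (7.17% higher, 6.28% lower), and leaving out replicate 5 gave 6 higher and 3 lower, with 14.2% called (7.7% higher, 6.48% lower).

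**Figure D4:**
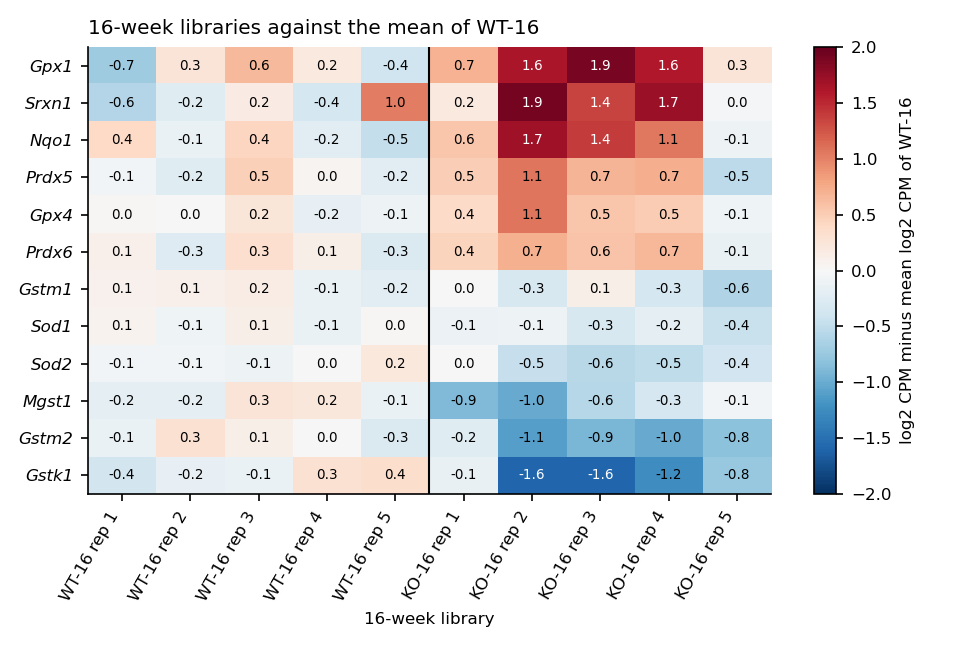
Each 16-week library (x axis) against the mean of the 5 WT-16 libraries for the 12 members (one line each), as log2 CPM minus the mean log2 CPM of WT-16. KO-16 replicates 2, 3 and 4 have the strongest colours for most members (Gpx1 1.63, 1.90 and 1.6; Gstk1 -1.59, -1.59 and -1.24), and replicates 1 and 5 are mostly paler, Mgst1 in replicate 1 (-0.88) being an exception.

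The spread within groups was larger at 16 weeks. The median coefficient of variation of the 35 members was 6.28% in WT-8, 7.18% in KO-8, 16.1% in WT-16 and 23.5% in KO-16. Wild-type levels also differed between the times. In WT-16, 18 members lay below WT-8 without overlap, 7 lay above and 10 overlapped. Mgst3 had 124 CPM in WT-8 and 36.2 in WT-16, Gpx4 118 and 45, Prdx5 107 and 39.2, and Prdx3 106 and 47.8. Among the 7 that were higher in WT-16 were Cat, with 142 and 283 CPM, and Sod3, with 6.24 and 12.5. Time, the 2 count files summed for each 16-week library and the 18S share changed together between these groups and cannot be told apart.

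Per kilobase of exonic length (FPKM, group means), the most expressed members in WT-8 were Mgst3 (113), Prdx3 (72.0), Gpx4 (68.3), Gstm1 (57.2), Cat (54.3) and Prdx5 (50.1). Among the tested members the least expressed were Gss (1.05) and Sod3 (1.67). In WT-16 the order was headed by Cat (108), Prdx2 (57.4) and Gpx3 (38.4). Nqo1 had 19.8 and Hmox1 2.42 in WT-8.

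**Figure D5:**
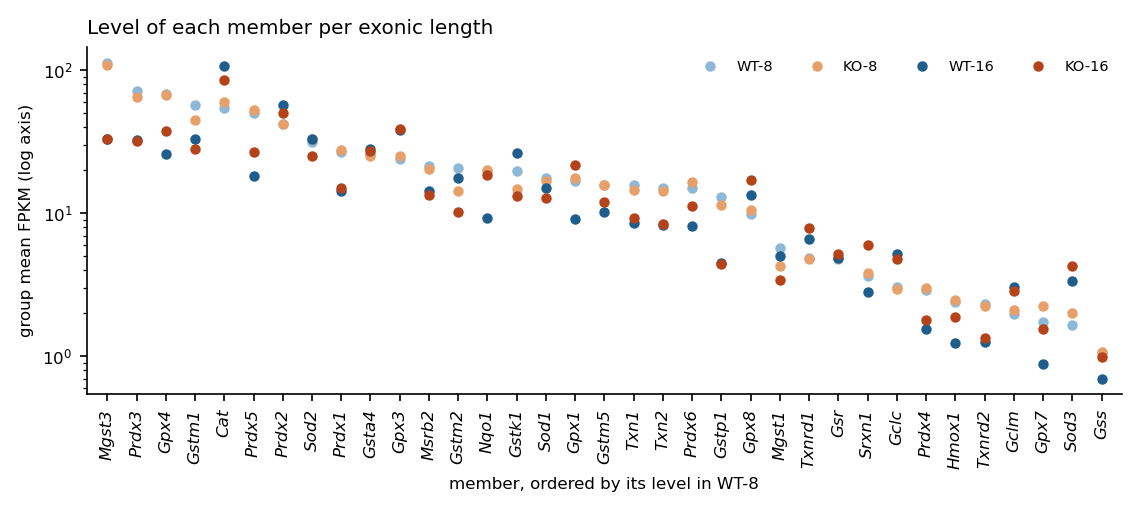
Group mean level per exonic length (FPKM, log axis) of the 35 tested members, ordered by their level in WT-8 and coloured by group. WT-8 and KO-8 points nearly coincide for most members, with wider gaps for some, such as Gstm2 (20.9 and 14.3), Gstk1 (19.7 and 14.9) and Gstm1 (57.2 and 45.3). The 16-week points lie below the 8-week points for Mgst3, Prdx3, Gpx4 and Prdx5 and above them for Cat.

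The genes around these systems were examined in lists of regulators and partners. Of 8 NRF2 regulators, Mafk and Mafg, small MAF partners of NRF2, fell slightly at 8 weeks (-0.23, adjusted p = 0.041, and -0.19, adjusted p = 0.0419), and each call was lost without any one of 7 of the 9 libraries. In the fit of all 19 libraries the 8-week calls of Mafk, Mafg, Aldh1l2, Idh2 and Gsto1, the last 3 described next, were lost (adjusted p = 0.883, 0.798, 0.346, 0.65 and 0.714). NRF2 itself (Nfe2l2) and its inhibitor Keap1 did not pass at either time. At 16 weeks no regulator passed, and Mafk was at 0.94 (SE 0.26, adjusted p = 0.0613). Of 14 genes of NADPH supply, Aldh1l2, the mitochondrial folate enzyme that yields NADPH, fell at both times: -0.70 (SE 0.10, adjusted p = 0.00115) and -1.37 (SE 0.32, adjusted p = 0.0385). The 16-week call was lost without any one of 8 libraries, the 5 of WT-16 and replicates 2, 3 and 4 of KO-16 (adjusted p = 0.0636 to 0.102), without the 2 male libraries (0.172), with a covariate for the 18S share (0.101) and with the earlier count file alone (0.0517). The NADP-dependent mitochondrial isocitrate dehydrogenase Idh2 fell at 8 weeks, from 1030 ± 40.4 CPM (SD, n = 5) to 806 ± 94.1 (n = 4), a log2 fold change of -0.35 (adjusted p = 0.00931). The transhydrogenase Nnt, which makes mitochondrial NADPH, was at -1.11 (SE 0.33, adjusted p = 0.0713) at 16 weeks.

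Among 26 further thiol enzymes, of which 25 and 22 were tested at 8 and 16 weeks, Msrb1 changed most. This selenoprotein reduces oxidised methionine in the cytosol and nucleus. It rose from 38.5 ± 2.29 CPM (SD, n = 5) to 80.1 ± 8.37 (n = 4) at 8 weeks, a log2 fold change of 1.07 with an SE of 0.07 (adjusted p = 1.25e-06). It rose from 14.5 ± 3.52 to 39.9 ± 12 CPM (n = 5 each) at 16 weeks, a log2 fold change of 1.46 with an SE of 0.22 (adjusted p = 0.00822). The KO libraries lay above all WT libraries at both times, and both calls held without any single library, although without both male libraries the 16-week adjusted p was 0.0575. The omega-class transferase Gsto1 rose at 8 weeks (0.44, SE 0.09, adjusted p = 0.00859) and was at 1.02 (SE 0.28, adjusted p = 0.0635) at 16 weeks, and Gstm7 was the only gene of this list that fell. The mitochondrial Msrb2, a member, did not pass, as given above.

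Of 10 sources of reactive oxygen, none passed at 8 weeks, and of 9 tested at 16 weeks the NADPH oxidase Nox4 rose (2.64, SE 0.62, adjusted p = 0.0417). It had 1.01, 1.08, 3.68, 2.00 and 0.92 CPM in WT-16 and 1.75, 9.60, 28.8, 16.5 and 7.48 in KO-16, where replicate 1 stayed within the WT range. The Nox4 call was lost without any one of 7 libraries, all of WT-16 but replicate 3 and replicates 2, 3 and 4 of KO-16 (adjusted p = 0.0822 to 0.106), with limma-voom (2.13, adjusted p = 0.203), without the 2 male libraries (0.191), with a covariate for the 18S share (0.104) and with the later count file alone (0.0538). At 8 weeks Nox4 was at 1.23 (adjusted p = 0.0894), and it passed there without a filter on low counts (2.09e-05). It had 1.12, 1.59, 1.57, 1.6 and 0.908 CPM in WT-8 and 2.11, 1.63, 7.2 and 1.53 in KO-8. The mean of KO-8 thus rested largely on replicate 3. Over the 8-week fits leaving out 1 library the log2 fold change ranged from 0.40 to 1.47 (adjusted p = 0.0421 to 0.337). Of 9 genes of iron and heme handling none passed at either time. The 10 fibroblast markers rose in 6 cases at 8 weeks and in 5 of 9 tested at 16 weeks, against 4.3% and 1.88% of all genes higher, and none fell. The count was 0 at 8 weeks in the fit of all 19 libraries, and 0 at 16 weeks with a covariate for the 18S share or without the 2 male libraries. No macrophage marker passed at either time, and of the 8 cardiomyocyte markers 1 fell at 8 weeks (Ryr2) and none at 16 weeks. Of 8 endothelial markers 3 rose at 8 weeks and 1 at 16 weeks, and none fell. Of 8 smooth muscle and pericyte markers 3 rose and 1 fell at 8 weeks, and 1 rose at 16 weeks. The fit of all 19 libraries called none of these at 8 weeks, nor did that with the 18S covariate at 16 weeks. Of 6 adipocyte markers 5 stayed below 1 CPM in every 8-week library, including Adipoq and Plin1, while Adipoq reached 8.84 CPM in 1 WT-16 library. Fabp4, the remaining gene of that list, had 193 to 307 CPM in WT-8 and 288 to 341 in KO-8, so its level did not follow the other 5. It rose at 8 weeks (0.39, adjusted p = 0.0345) but not in the fit of all 19 libraries. That rise is not read as one of adipocytes. At 16 weeks Fabp4 was at -0.11 (adjusted p = 0.711).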

How the data were processed

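Ventricular RNA was sequenced in 19 libraries. The deposited values were whole counts of read pairs per gene, made with featureCounts 1.6.3 on GRCm38 with Ensembl 96 (paired, reverse-stranded), per the file headers. The tools cutadapt 1.16, STAR, SAMtools, RSEM and FastQC are listed in the submitters' processing notes, without their roles. Each 16-week sample had 2 count files, which were summed. All 55536 genes matched GENCODE M21 by position and strand, and each member was found by symbol.

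Each time was fitted in its own libraries with edgeR 4.0.16 (TMM factors of 0.455 to 1.48, filterByExpr, quasi-likelihood test, Benjamini-Hochberg adjustment over all genes tested, threshold 0.05), because the spread differed between the times. A fit of all 19 libraries gave the difference between times and served as an alternative. CPM used the TMM-scaled totals, and FPKM divides CPM by exonic length in kilobases. Other alternatives were other scaling factors, no filter, DESeq2 1.42.0, limma-voom (limma 3.58.1), each count file alone, each library left out, no male libraries and the 18S share as a covariate. The restriction to libraries over 20% 18S was chosen after seeing the data. The scripts were tested on simulated data (R 4.3.3, Python 3.11.15).

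The members and lists were chosen with earlier results of these data known. Members given library by library were those past the threshold in the fits at either time or in the fit of all libraries, and each other list names up to 3 genes with the smallest p at 16 weeks and up to 2 at 8 weeks. The remaining Gstm genes, Nfe2l2, Keap1, Ryr2 and the adipocyte markers were named after their values were seen. Replicate numbers follow accession order and only name libraries.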

Additional observations from a re-analysis of the deposited data

Results flagged for a closer look

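Of 140 pairs of a member and a group, 9 held 1 library far from the rest by Dixon's test at the 95% level, where chance gives about 1 in 20. In WT-16 the male replicate 5 was high for both subunits of glutamate-cysteine ligase, with Gclc at 24.8 CPM (others 17.3 to 19) and Gclm at 31.0 CPM (others 14.8 to 17). In KO-16 the plasma peroxidase Gpx3 was low in replicate 2, at 34.0 CPM (others 66.7 to 84.1), and Gsta4 was high in the male replicate 4, at 39.7 CPM (others 32.3 to 33.7). In WT-8 Gss was low in replicate 5, at 5.19 CPM (others 6.24 to 6.59). In KO-8 Gpx1 was low in replicate 2, at 23.9 CPM (others 26.2 to 26.6), and Gpx8 was high in replicate 3, at 12.9 CPM (others 10.2 to 10.5). Also in KO-8, Txnrd1 was high in replicate 4, at 36.5 CPM (others 33.2 to 33.4), and Prdx1 in replicate 1, at 96.1 CPM (others 79.5 to 81.1).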

How the results depend on the processing

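At 8 weeks the count of 3 members lower became 0 in the fit of all 19 libraries, and leaving out 1 library gave 3 to 4 lower and 0 to 1 higher. At 16 weeks the count of members higher was 0, and it was 1 with RLE factors, with upper-quartile factors or without rRNA and mitochondrial genes, 3 without a filter or with DESeq2, and 6 in the fit of all 19. The count of members lower was 1, and it was 2 without a filter, with limma-voom or in libraries over 20% 18S, 3 with DESeq2, 5 in the fit of all 19, and 0 without the male libraries or with the 18S share as a covariate. Leaving out 1 library gave 0 to 6 higher and 0 to 3 lower at 16 weeks, and 0 to 2 higher and 0 to 2 lower for the difference between times, where the main counts were 0. The direction changed for Gpx4 at 8 weeks without WT-8 replicate 1 (0.0091) or KO-8 replicate 4 (0.0126) and for Nqo1 at 8 weeks without KO-8 replicate 4 (-0.0029), all near 0. Over leaving out 1 library at 8 weeks Gpx4 ranged from -0.0574 to 0.0126 and Nqo1 from -0.0029 to 0.0568. Over all genes, leaving out 1 library gave 872 to 1163 calls at 8 weeks, 29 to 1856 at 16 weeks and 0 to 613 for the difference between times. Calls over all genes at 16 weeks, 237 higher and 119 lower, became 657 and 377 without a filter, 628 and 527 with DESeq2, 1735 and 1446 in the fit of all 19, 106 and 226 with limma-voom, 7 and 3 without the male libraries and 21 and 7 with the 18S covariate. At 8 weeks 652 and 593 became 17 and 14 in the fit of all 19, and for the difference between times 0 and 0 became 38 and 5 without a filter and 15 and 8 with DESeq2. The cause of these shifts was not tested. No paired analysis was possible because the labels give no number that ties a WT library to a KO library. Slc7a11, with at most 21 counts in a group, stayed below the filter on low counts and was untested.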
